A study of Mus musculus with 18 samples.

Results

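In the skin of E18.5 mouse embryos, 855 cells were chosen by their RNA for nociceptin precursor (Pnoc), neuropeptide Y (Npy), Sfrp4 and C1qtnf3. A cell was taken if it held 3 or more unique molecular identifiers (UMIs) over these 4 genes, no Epcam, and 3 or more UMIs of the collagens Col1a1 and Col3a1. The sum over the 4 genes also had to lie above that of Cpne5, Stmn2, Inhba, Crabp1 and Ptch1, here called the upper dermal sum, and above that of Pi16, Clec3b and Dpep1, here called the Pi16 sum. Cells with 3 or more UMIs of the tendon genes Thbs4 and Cilp were left out. The 855 cells were 10.0% of the 8538 collagen cells of the library (95% exact binomial interval 9.39 to 10.7%), which had 9052 cells with 500 or more genes and under 20% mitochondrial UMIs out of 9184 barcodes. The members were compared with the other 7682 cells that carried Col1a1.

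The working name treats these cells as a single fibroblast population, and the data went against that. Clusters of the collagen cells that were made without the genes of the rule spread the members over several clusters, and members led by different genes of the rule lay mostly in different ones, except that with fewer principal components those led by Pnoc and by Npy shared one. Where Pnoc was the highest of Pnoc, Npy and the sum of C1qtnf3 with Sfrp4, a member is called Pnoc-led (114 cells, 13.3% of members). The Npy-led members numbered 188 (22.0%), the C1qtnf3/Sfrp4-led members 538 (62.9%), and 15 were tied (1.75%). This division was made after the values were seen. The names of the kinds state a leading gene and no cell type.

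The genes of the rule have unlike roles. Pnoc encodes the precursor of nociceptin, an opioid-related neuropeptide, and Npy encodes the precursor of neuropeptide Y, which is best known from sympathetic nerves and the brain. Sfrp4 is a secreted protein that binds Wnt ligands, and C1qtnf3 (also called cartonectin) is a secreted protein with a collagen-like stretch and a C1q-like head. On GRCm38 the genes lie apart, Pnoc at chr14:65400673-65425472 (minus strand), Npy at chr6:49822710-49829507, Sfrp4 at chr13:19623104-19632994 and C1qtnf3 at chr15:10952332-10980150 (plus strand), and all are protein-coding. Nefm, which the working name lists beside them and the rule did not use, encodes a neurofilament subunit of nerve cell processes. Dermal fibroblasts before birth divide into an upper lineage that takes part in hair follicle formation and responds to Wnt signals, and a lower, reticular lineage that lays down matrix and borders fat, fascia and muscle.

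The cells came from the skin beside the mammary rudiments of pooled female C57BL/6 embryos that carried the Lgr5-GFP reporter, a knock-in that marks cells using the Lgr5 gene. Blood and endothelial cells had been depleted by antibody sorting and the remaining cells were gated on CD24, so the shares given here are shares of sorted cells. RNA was counted with a droplet 3′ method (10x Chromium). The label calls the population adjacent epidermis, whereas 8538 of the 9052 kept cells were collagen cells and 95 met a keratinocyte rule (Epcam present and 10 or more keratin UMIs). There was 1 skin library and no replicate of it, so no difference below was tested, the cells of the library were not treated as replicates, and the intervals (exact Poisson for levels, exact binomial for shares, both 95%) cover counting error only.

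The library held 50904927 UMIs, within the range of 9920346 to 93234616 over the 18 libraries of the series. The members had a median of 6376 UMIs and 2040 genes per cell, the other Col1a1 cells 5032.5 UMIs and 1804 genes, and the keratinocytes 7127 UMIs. The kinds were near each other in depth, with medians of 6144 UMIs (Pnoc-led), 6436 (Npy-led) and 6378.5 (C1qtnf3/Sfrp4-led). A doublet caller marked 74 of the 9052 kept cells (0.817%), among them 13 members (1.52%). No markers of blood cells stood out in the members: the summed level of 9 immune genes was 10.2 CPM (the UMIs of a gene over all UMIs of the cell set, scaled to a fixed total), against 11.6 CPM in the other Col1a1 cells, and Ptprc was at 0. For 9 Schwann cell and glial genes the summed level was 82.4 CPM in members and 262 CPM in the other Col1a1 cells, so the comparison set held more glial RNA than the members, whose part in the results was not tested beyond leaving those cells out.

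The 4 genes of the rule were high in the members because they chose them, and their levels are a description. Summed over all members, Pnoc stood at 485 CPM (interval 467 to 504) against 15.96 CPM in the other Col1a1 cells, and Npy at 458 CPM (440 to 476) against 35.8 CPM. Sfrp4 stood at 325 CPM (310 to 340) against 30.6 CPM, and C1qtnf3 was the most abundant of the 4 at 666 CPM (644 to 688) against 86.5 CPM. Outside the members, the tendon-like cells (479 cells with 3 or more Thbs4 and Cilp UMIs) came next for each of the 4 genes, with 208 CPM of Npy, 187 CPM of Sfrp4, 460 CPM of C1qtnf3 and a much lower 28.3 CPM of Pnoc. The upper dermal set (2654 cells, chosen by the upper dermal sum) held 19.4 CPM of Pnoc and 23.1 CPM of C1qtnf3, and the Pi16 set (1591 cells) 11.3 CPM of Pnoc and 120 CPM of C1qtnf3.

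**Figure D1:**
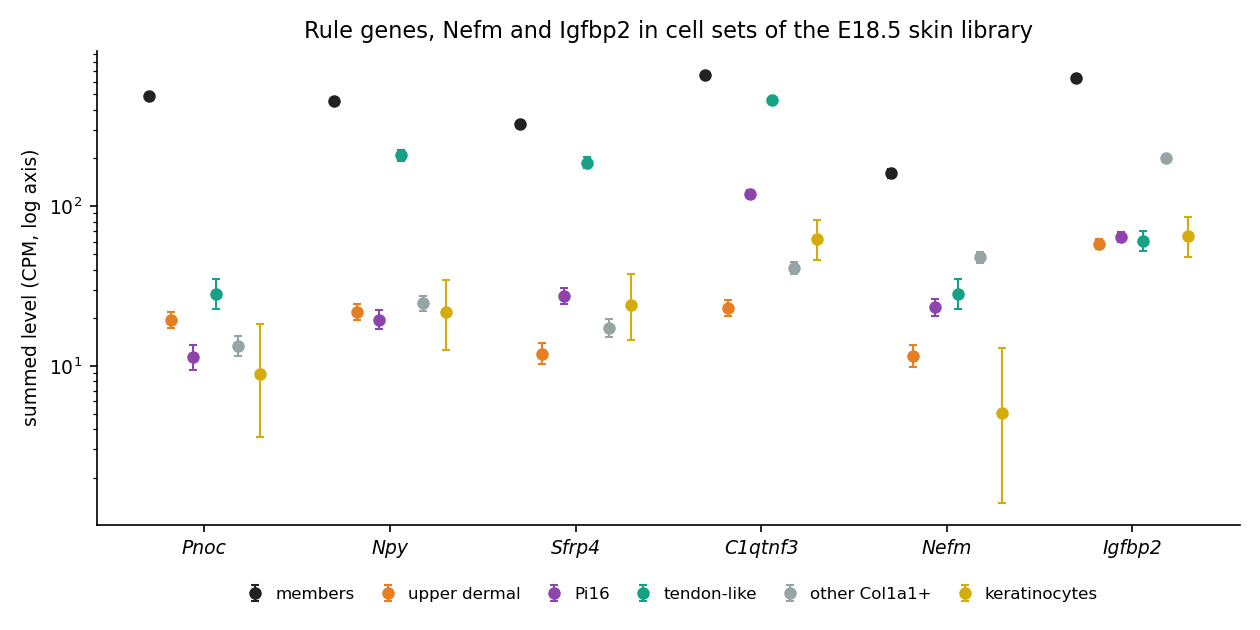
Summed level (CPM, log axis) of Pnoc, Npy, Sfrp4, C1qtnf3, Nefm and Igfbp2 in the members, the upper dermal, Pi16 and tendon-like sets, the remaining Col1a1 cells and the keratinocytes of the E18.5 skin library; bars are exact Poisson intervals. The members lie highest for every gene shown, and the tendon-like set comes close to them for C1qtnf3 (460 against 666 CPM) and stays far below them for Pnoc (28.3 against 485 CPM).

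Free RNA was read from the keratinocytes, taken here to lack these genes. They were no clean control, since 18 fibroblast genes summed to 8218 CPM in them, against 41924 CPM in the other Col1a1 cells. The part of mixed cells in that level was not tested. Median depths were 6376 UMIs in members and 7127 UMIs in keratinocytes. After thinning each cell to 2000 UMIs, which left out 12 members, 459 other Col1a1 cells and 3 keratinocytes as too shallow, 16.4% of members held a Pnoc UMI against 2.49% of the other Col1a1 cells and 3.26% of the keratinocytes (24.2%, 6.20% and 6.32% without thinning). Over all other Col1a1 cells the share with Pnoc was thus no higher than that of keratinocytes. Since the control was not clean, free RNA and low expression could not be told apart there, and 21 cells outside the members held 3 or more Pnoc UMIs. For Npy the thinned shares were 32.0%, 4.87% and 5.43% in the same order, so that keratinocytes held it no less often than all other Col1a1 cells. The tendon-like set among them held Npy in 13.2% of its thinned cells (10.2 to 16.6%). The keratinocyte shares rest on 92 thinned cells, with intervals of 0.678 to 9.23% for Pnoc and 1.79 to 12.2% for Npy. The latter interval overlaps that of the tendon-like set. For Sfrp4 the thinned shares were 36.2%, 4.28% and 6.52% in members, other Col1a1 cells and keratinocytes. Over all other Col1a1 cells it was thus no higher than in keratinocytes, while the tendon-like set held it in 18.5% (15.1 to 22.3%). C1qtnf3 was found in 52.2% of members, 10.1% of other Col1a1 cells and 5.43% of keratinocytes, and Nefm in 16.01%, 3.36% and 2.17%. By level the keratinocytes held 8.90 CPM of Pnoc, 21.6 CPM of Npy, 24.1 CPM of Sfrp4 and 62.3 CPM of C1qtnf3. That C1qtnf3 level lay above the 23.1 CPM of the upper dermal set. It also lay above the 41.1 CPM of the Col1a1 cells in none of the upper dermal, Pi16 and tendon-like sets.

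The sum over the 4 genes had a median of 9 UMIs per member, with 3 at the 10th percentile, 24 at the 90th and 130 at most. The 90 members with exactly 3 UMIs, just inside the threshold, had a median depth of 5690.5 UMIs and carried Nefm in 28.9% and Igfbp2 in 51.1% of cells. The 133 cells with 2 UMIs that met the other limits, just outside it, had 4923 UMIs, Nefm in 24.1% and Igfbp2 in 40.6%. Of the 1380 collagen cells with 3 or more UMIs of the 4 genes, 1295 were above the upper dermal sum, 1038 of these also above the Pi16 sum, and the tendon limit left 855. The limits did not fall evenly on the genes. The rule took 114 of the 135 cells with 3 or more Pnoc UMIs and 235 of the 295 with 3 or more Npy UMIs (51 of the others were tendon-like). It took 450 of the 806 cells with 3 or more C1qtnf3 UMIs, of which 163 fell in the Pi16 set and 150 in the tendon-like set. Of the 16 Pnoc cells that fell to the upper dermal sum, 15 did so only through Stmn2, a tubulin-binding protein of growing nerve processes.

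Cells rich in Pnoc held little of the other genes. A single gene of the 4 was detected in 294 members (34.4%), 2 genes in 340 (39.8%), 3 in 208 (24.3%) and all 4 in 13 (1.52%). The most common combinations were Sfrp4 with C1qtnf3 (175 cells), those 2 with Npy (152 cells), C1qtnf3 alone (122), Npy alone (79) and Pnoc alone (76). Of the 207 members with any Pnoc UMI, 131 (63.3%, 56.3 to 69.9%) also held Npy, Sfrp4 or C1qtnf3, among them all 93 with 1 or 2 Pnoc UMIs, which needed another gene to enter the rule. Of the 114 with 3 or more Pnoc UMIs, 38 (33.3%, 24.8 to 42.8%) did. Among these 114, 14.0% held Npy and 11.4% held C1qtnf3, against 51.5% and 78.9% of the 648 members with no Pnoc. C1qtnf3 and Sfrp4 were found together more often: 60.2% of the 450 members with 3 or more C1qtnf3 UMIs held Sfrp4, against 34.3% of the 265 with none. Since a member needs only 1 of the genes, the choice of cells itself lowers their joint occurrence, and these shares are descriptions.

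**Figure D2:**
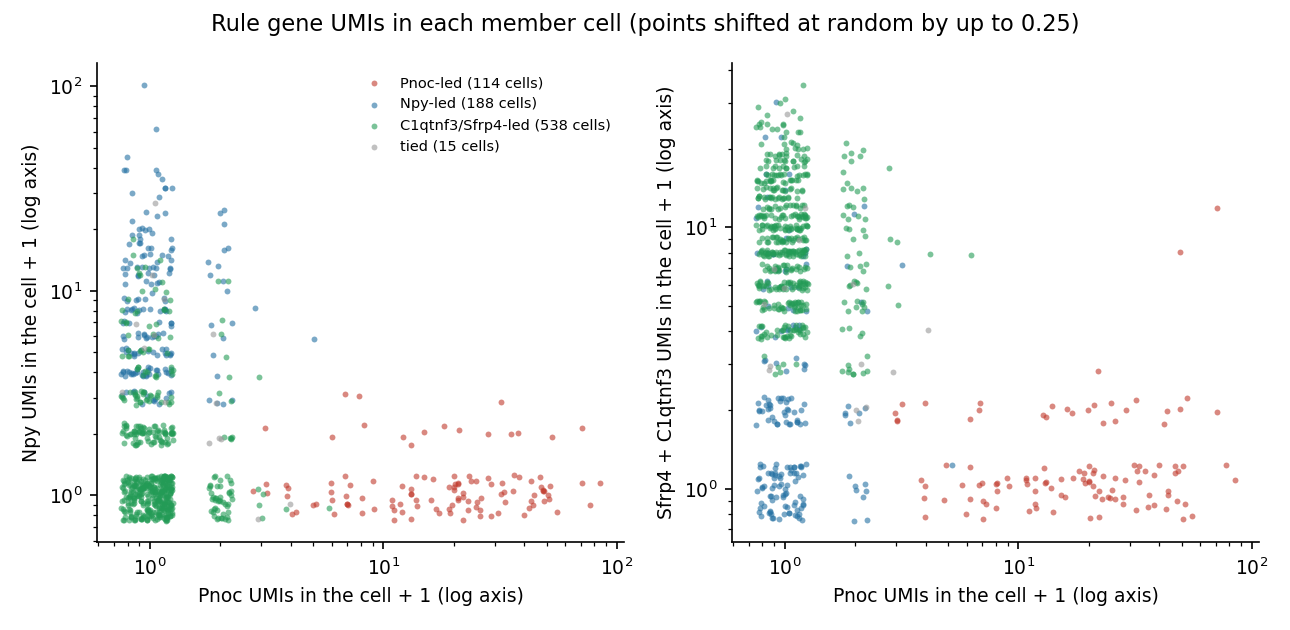
UMIs of Pnoc (horizontal axis, plus 1, log) against UMIs of Npy (left) and of Sfrp4 with C1qtnf3 (right; vertical axes plus 1, log) in each of the 855 members, coloured by kind. Most cells lie along an axis: the 114 Pnoc-led cells carry little of the other genes, and the Npy-led cells (188) and C1qtnf3/Sfrp4-led cells (538) carry little Pnoc.

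Leaving each gene out of the rule in turn gave its level in cells that were chosen without it. The 726 cells chosen by Npy, Sfrp4 and C1qtnf3 held 45.7 CPM of Pnoc (39.7 to 52.2) against 73.4 CPM in the rest of the Col1a1 cells, a ratio of 0.622 (0.539 to 0.715). By share of cells the order was the other way, with a Pnoc UMI in 10.7% (8.59 to 13.2%) of the chosen and 7.75% (7.16 to 8.36%) of the remaining cells, which here include cells rich in Pnoc that the 3 genes did not choose. The other genes were higher in cells chosen without them: Npy 302 against 62.2 CPM, a ratio of 4.86 (4.54 to 5.19), Sfrp4 274 against 41.5 CPM, a ratio of 6.59 (6.13 to 7.09), and C1qtnf3 410 against 133 CPM, a ratio of 3.08 (2.90 to 3.26). Each of these comparisons keeps the same upper dermal, Pi16 and tendon limits, so it shares those with the rule.

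**Figure D3:**
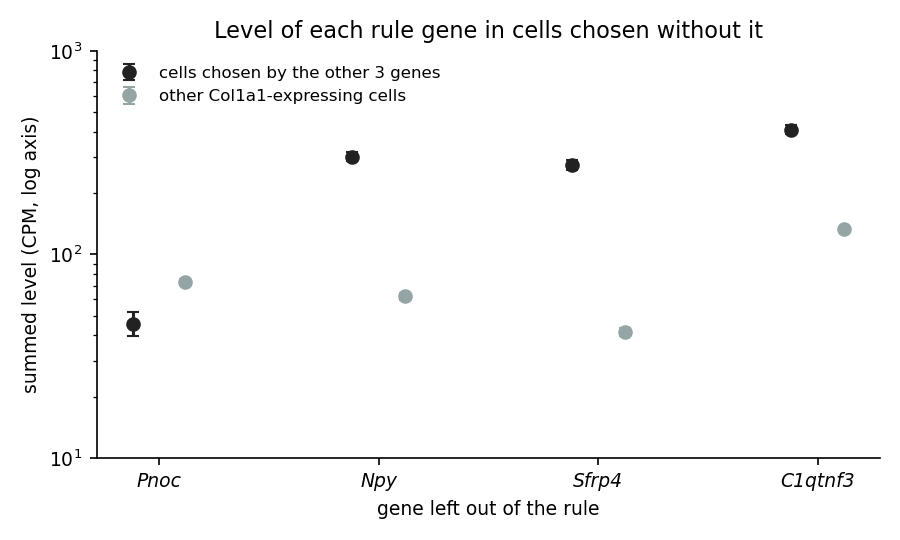
Summed level (CPM, log axis) of each gene in the cells chosen by the other 3 genes (dark) and in the remaining Col1a1 cells (grey), with exact Poisson intervals. Npy, Sfrp4 and C1qtnf3 lie above the remaining cells, and Pnoc lies below them (45.7 against 73.4 CPM).

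The levels by kind show how the summed values arose. A kind is high in its leading gene by definition, and the rule took most Pnoc-rich cells out of the comparison cells. Pnoc stood at 3608 CPM in the Pnoc-led cells and at 20.7 and 22.0 CPM in the Npy-led and C1qtnf3/Sfrp4-led cells, levels near the 15.96 CPM of the other Col1a1 cells. A Pnoc-led cell held a median of 19 Pnoc UMIs and at most 84, and these 114 cells gave 95.8% of all Pnoc UMIs of the members. Npy stood at 1582 CPM in the Npy-led, 145 CPM in the C1qtnf3/Sfrp4-led and 26.9 CPM in the Pnoc-led cells, with a median of 7 and at most 101 UMIs per Npy-led cell. C1qtnf3 stood at 969, 179 and 19.9 CPM, and Sfrp4 at 442, 161 and 44.0 CPM, in the C1qtnf3/Sfrp4-led, Npy-led and Pnoc-led cells in that order.

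Genes that the rule did not use also separated the kinds. All collagen cells were clustered on 2000 variable genes from which every gene named in the rule had been taken out, which gave 16 clusters. Of the Pnoc-led cells, 91.2% (84.5 to 95.7%) fell in cluster 15, of 160 cells, with Ren1, Chrdl2, Tmem59l, Lsp1 and Igfbp2 among its leading genes. Of the Npy-led cells, 65.4% (58.2 to 72.2%) fell in cluster 8, of 521 cells, led by Nefl, Nefm, Stmn4, Tspan8, Npnt and Igfbp2. Of the C1qtnf3/Sfrp4-led cells, 65.8% (61.6 to 69.8%) fell in cluster 4, of 719 cells, led by Tagln, Rxfp1, Meox1, Col8a2, Fmod and Actg2. A further 94 C1qtnf3/Sfrp4-led cells (17.5%) lay in cluster 5, where 75.0% of the cells were of the Pi16 set. A further 39 Npy-led cells (20.7%) lay in cluster 4. With 10 principal components in place of 20, the leading cluster of the Pnoc-led and of the Npy-led cells was the same cluster, which held 80.7% and 63.3% of them.

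**Figure D4:**
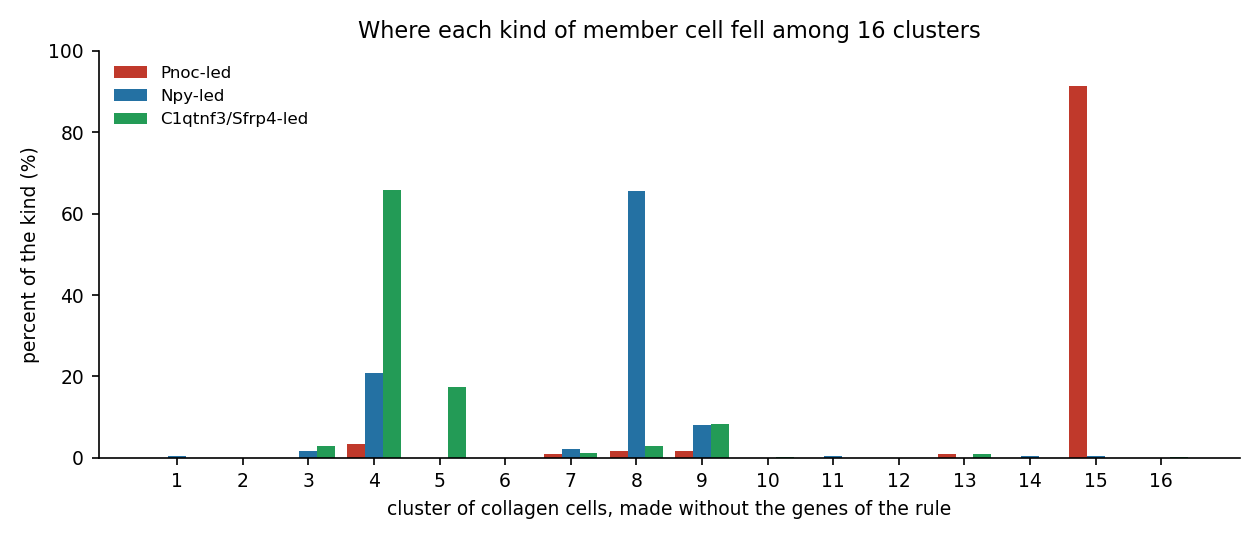
Percent of each kind of member (vertical axis, bars from 0) in each of 16 clusters of collagen cells (horizontal axis) made without the genes of the rule. The tallest bars are 91.2% of the Pnoc-led cells in cluster 15, 65.8% of the C1qtnf3/Sfrp4-led cells in cluster 4 and 65.4% of the Npy-led cells in cluster 8.

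The clusters also held cells that the rule did not take. In cluster 15, 55 cells were no members, 25 of them in the upper dermal set, and they carried more Ren1 (1007 CPM) and less Pnoc (555 CPM) than the 104 Pnoc-led cells there (477 and 3816 CPM). Their Stmn2 level was 862 CPM. In cluster 8, 378 cells lay outside the rule with 58.3 CPM of Npy but 334 CPM of Nefm, 271 CPM of Nefl, 127 CPM of Stmn4 and 110 CPM of the transcription factor gene Isl1, and of the 272 among them that were in none of the upper dermal, Pi16 and tendon-like sets 146 had no UMI of any of the 4 genes. In cluster 4, the 314 cells outside the rule held 594 CPM of C1qtnf3, 312 CPM of Sfrp4 and 313 CPM of Npy, and 153 of them were tendon-like. Of 205 collagen cells with 3 or more Nefm UMIs, 91 were members, 24 were in the Pi16 set, 11 in the upper dermal set, 7 in the tendon-like set and 72 in none of these. Npy was found in 87.9% of the 91, a share in part set by the rule, which counts Npy.

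Across all members, 5516 genes were compared with the other Col1a1 cells, those at 20 CPM or more in either set and with a UMI in 5% or more of the cells of either. With 5 CPM added to both levels, 115 genes were 2-fold or more higher in members (2.08% of the genes compared) and 124 were 2-fold or more lower (2.25%), and 111 of the 115 were not genes of the rule's 4. The median log2 difference over all compared genes was −0.06. Of the 115 higher genes, 14 (12.2%) were 2-fold higher in each of the 3 kinds taken alone, 61 (53.0%) in 2 kinds and 40 (34.8%) in a single kind. Of the 124 lower genes, 54 (43.5%) were 2-fold lower in each kind, 60 (48.4%) in 2 kinds and 10 (8.06%) in a single kind. The upper dermal and Pi16 limits of the rule applied to all 3 kinds alike.

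The 14 genes higher in each kind were Arl4d, Col8a2, Crabp2, Hk2, Pde10a, Piezo2, Pitx1, Serpine2, Slc38a1, Ssc5d, Tgfb2, Tspan13, Vwc2 and Zfhx3. Among them Col8a2, Crabp2, Pitx1, Tspan13 and Vwc2 lay under 20 CPM in the other Col1a1 cells. Those genes were compared only through their level in the members and could not have been called lower. Tgfb2, a ligand of the TGF-beta family, stood at 315 CPM in the Pnoc-led, 310 CPM in the Npy-led and 141 CPM in the C1qtnf3/Sfrp4-led cells, against 49.3 CPM in the other Col1a1 cells. Col8a2, a short-chain collagen, stood at 55.3, 34.0 and 68.2 CPM in the kinds in that order, against 8.48 CPM. Pitx1, a homeobox transcription factor known from the hindlimb and pituitary, stood at 126, 43.1 and 46.2 CPM, against 13.4 CPM. Piezo2, a mechanically gated ion channel, stood at 62.4, 126 and 49.4 CPM, against 21.1 CPM, and Crabp2, a carrier of retinoic acid, at 83.7, 50.6 and 54.3 CPM, against 17.5 CPM. The tendon-like set lay at 127 CPM of Tgfb2, 49.0 CPM of Col8a2 and 45.0 CPM of Pitx1, near the C1qtnf3/Sfrp4-led cells.

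Ren1, Chrdl2 and Nppc stood far higher in the Pnoc-led cells than in the other kinds. Ren1, which encodes renin, the protease that starts the renin-angiotensin cascade, stood at 522 CPM (470 to 578) in the Pnoc-led cells, 3.32 CPM in the Npy-led and 3.75 CPM in the C1qtnf3/Sfrp4-led cells, against 14.7 CPM in the other Col1a1 cells. It was not in every Pnoc-led cell: 34.2% held a Ren1 UMI. Chrdl2, a secreted BMP antagonist, stood at 211 CPM, against 2.49 and 2.89 CPM in the other kinds. Nppc, the precursor of C-type natriuretic peptide, stood at 197 CPM, against 27.4 and 15.3 CPM.

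Stmn2, which the rule counts against a cell, stood at 455 CPM (407 to 508) in the Pnoc-led cells, above the 216 CPM of the upper dermal set, and at 10.8 and 12.4 CPM in the other kinds. Of the receptors, Esr1 (oestrogen receptor alpha) stood at 63.8 CPM, Kdr (a VEGF receptor) at 82.3 CPM and Ramp1 (a partner of the CGRP receptor) at 304 CPM in the Pnoc-led cells. The same genes stood at 3.32, 4.15 and 109 CPM in the Npy-led and at 20.2, 13.3 and 36.7 CPM in the C1qtnf3/Sfrp4-led cells. The transcription factor genes Wt1 (86.5 CPM) and Gata2 (49.6 CPM) were also highest in the Pnoc-led cells, with Gata2 at 0.829 and 0.866 CPM in the other kinds. Wt1 also marks mesothelial cells, and a list of 5 mesothelial genes summed to 89.4 CPM in the Pnoc-led cells against 5.78 CPM in the other Col1a1 cells, of which Wt1 made 86.5 CPM, with Msln, Upk3b and Lrrn4 at 0 in the Pnoc-led cells. The 5 listed perineurial genes summed to 255 CPM there, with 3 or more UMIs in 25.4% of cells, against 44.3 CPM and 1.34%, and Moxd1 made 199.99 CPM of it, Slc2a1 48.2 CPM, and Cldn1 was at 0. The part of mesothelial and perineurial cells in these levels was not tested. Of the 129 CPM that 7 endothelial genes summed to in the Pnoc-led cells, Kdr made 82.3 CPM. The other 6 summed to 46.8 CPM (32.2 to 65.7) in the Pnoc-led, 19.1 CPM (12.1 to 28.6) in the Npy-led and 30.6 CPM (25.1 to 37.0) in the C1qtnf3/Sfrp4-led cells, against 33.2 CPM in the other Col1a1 cells, and Emcn was at 0 in all members. The part of endothelial cells in the level of Kdr was not tested.

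Among matrix genes, the proteoglycan and matricellular group was low in the Pnoc-led cells against the other members, and other groups were mixed. The 34 listed genes of that group summed to 11019 CPM in the Pnoc-led cells and 15011 CPM in the other Col1a1 cells. The upper dermal set held 9691 CPM. Against the other members 5746 genes were compared, and 304 were 2-fold higher (5.29%) and 197 lower (3.43%). Of 23 proteoglycan and matricellular genes compared, 2 were higher (Spon1 and Matn2) and 12 lower, with a median log2 difference of −1.09, and of 25 collagens 4 were higher and 8 lower (median −0.58). Of 16 elastic fibre genes 3 were higher (Fbln1, Fbln5 and Efemp1) and 4 lower (Eln, Mfap5, Lox and Loxl2), and the listed 18 summed to 6496 CPM in the Pnoc-led, 6224 CPM in the Npy-led and 9431 CPM in the C1qtnf3/Sfrp4-led cells. Of 18 matrix proteases and inhibitors 1 was higher and 2 lower. Col1a1 itself stood at 6604 CPM in the Pnoc-led, 10171 CPM in the Npy-led and 17617 CPM in the C1qtnf3/Sfrp4-led cells, compared with 2339 CPM in keratinocytes. Of 6 Wnt antagonists compared, none was 2-fold higher and 5 were lower (Sfrp1, Sfrp2, Wif1, Dkk2 and, used by the rule, Sfrp4). Sfrp2 stood at 306 CPM, against 705 and 1500 CPM in the other kinds and 300 CPM in the other Col1a1 cells. The 14 listed Wnt antagonists summed to 523 CPM in the Pnoc-led cells, near the 526 CPM of the Pi16 set. The other Col1a1 cells held 822 CPM. Of 14 Wnt ligands and receptors, 5 were higher (Wnt4, Wnt5a, Wnt16, Rspo1 and Rspo3) and 2 lower (Lgr4 and Lgr5), with a median log2 difference of 0.15, and Rspo3, an activator of Wnt signalling, stood at 165 CPM against 37.3 and 49.4 CPM.

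Neurofilament RNA stood highest in the Npy-led cells, of which 57.4% held Nefm, but it was uneven within this kind. The 123 Npy-led cells of cluster 8 held 660 CPM of Nefm and 506 CPM of Nefl. Cluster 4 held 51 members that were not C1qtnf3/Sfrp4-led, 39 of them Npy-led. Those 51 had 2351 CPM of Npy but 30.4 CPM of Nefm and 16.9 CPM of Nefl. Nefm stood at 481 CPM (443 to 522) in the Npy-led, 75.1 CPM in the C1qtnf3/Sfrp4-led and 35.5 CPM in the Pnoc-led cells, and Nefl at 383 CPM (349 to 420), 47.4 and 28.4 CPM. In the other Col1a1 cells Nefm was at 27.6 and Nefl at 20.004 CPM. On GRCm38 Nefl (chr14:68083863-68089095, plus strand) lies within the annotated span of Nefm (chr14:68082590-68124846, minus strand), and no source read here says if the counting used strand, so the 2 levels may not be fully separate. Among members with 3 or more Npy UMIs 47.2% held Nefm, against 11.8% of those without Npy. Stmn4, a stathmin of nerve cells, stood at 101 CPM in the Npy-led cells, against 8.51 CPM in the Pnoc-led and 8.95 CPM in the C1qtnf3/Sfrp4-led. Isl1, a LIM-homeobox factor of sensory and motor neurons and other progenitors, stood at 75.5 CPM, against 4.26 and 9.24 CPM.

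Other genes that stood highest in the Npy-led cells were Tspan8 (110 CPM), a tetraspanin, Npnt (76.3 CPM), an integrin ligand of basement membranes, and Dkk2 (136 CPM), a Wnt antagonist. Against the other members 5453 genes were compared for these cells, and 91 were 2-fold higher (1.67%) and 57 lower (1.05%). The neuronal genes of the list were uneven. The 13 summed to 522 CPM in the Npy-led cells, where 47.9% of cells held 3 or more of their UMIs, against 49.7 CPM and 2.51% in the other Col1a1 cells. Nefl (383 CPM), Isl1 (75.5 CPM) and Uchl1 (53.1 CPM) were the 3 that were compared and higher in the Npy-led cells, while Tubb3 stood at 2.49 CPM there and Elavl4, Snap25, Nefh, Th and Dbh were at 0 in all members. The part of nerve cell RNA in these levels was not tested. All 18 fibroblast genes were compared there, none was 2-fold apart from the other members, and Postn, a matricellular protein, stood at 3209 CPM, the highest level of the 3 kinds.

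Collagens summed highest in the C1qtnf3/Sfrp4-led cells among the kinds, at 48663 CPM, against 29353 CPM in the Npy-led and 20972 CPM in the Pnoc-led cells, and the Pi16 set held 50017 CPM. For the C1qtnf3/Sfrp4-led cells 5489 genes were compared with the other members, and 80 were 2-fold higher (1.46%) and 151 lower (2.75%). Of 25 collagens compared there, 4 were 2-fold higher (Col1a2, Col5a3, Col11a1 and Col15a1) and 4 lower, with a median log2 difference of 0.62. Fmod, fibromodulin, a small proteoglycan that binds collagen fibrils, stood at 200 CPM (185 to 215) in them, 54.7 CPM in the Npy-led and 9.93 CPM in the Pnoc-led cells, and at 215 CPM in the tendon-like set. Eln, elastin, stood at 1794, 710 and 305 CPM in the same order, with 860 CPM in the Pi16 set and 332 CPM in the tendon-like set. Cthrc1, a secreted protein of matrix-forming fibroblasts, stood at 527, 158 and 68.1 CPM, and Mgp, an inhibitor of calcification, at 683, 241 and 90.8 CPM, with 1290 CPM in the tendon-like set.

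Rxfp1, the receptor for relaxin, which loosens connective tissue, stood at 53.7 CPM in the C1qtnf3/Sfrp4-led, 10.8 CPM in the Npy-led and 11.3 CPM in the Pnoc-led cells, against 3.13 CPM in the other Col1a1 cells and 17.8 CPM in the tendon-like set. Meox1, a homeobox factor of somite derivatives, stood at 64.7, 24.9 and 9.93 CPM, against 9.57 CPM, and the tendon-like set held 61.5 CPM. Tnmd, tenomodulin, was found at 160 CPM, against 545 CPM in the tendon-like set. The 10 listed tendon genes summed to 710 CPM in the C1qtnf3/Sfrp4-led cells, and 57.2% of cells held 3 or more of their UMIs. In the other Col1a1 cells the values were 332 CPM and 11.8%, and the tendon-like set held 2906 CPM. Of 6 tendon genes compared with the other members, 4 were higher (Thbs4, used by the rule, Scx, Tnmd and Fmod) and none lower. Over all genes 1.46% were higher. The part of tendon cells in these levels was not tested. The contractile genes Acta2 (173 CPM) and Tagln (102 CPM) also stood highest in this kind. Of 10 mural cell genes 5 were compared between all members and the other Col1a1 cells and 3 were higher (Acta2, Tagln and Des), while Rgs5, a pericyte marker, stood at 1.46 against 1.16 CPM. The 10 genes summed to 378 CPM in members against 164 CPM, and 29.9% of members held 3 or more of their UMIs against 7.54%. By kind the sums were 312 CPM (Pnoc-led), 332 CPM (Npy-led) and 413 CPM (C1qtnf3/Sfrp4-led), and the part of mural cells in these levels was not tested.

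**Figure D5:**
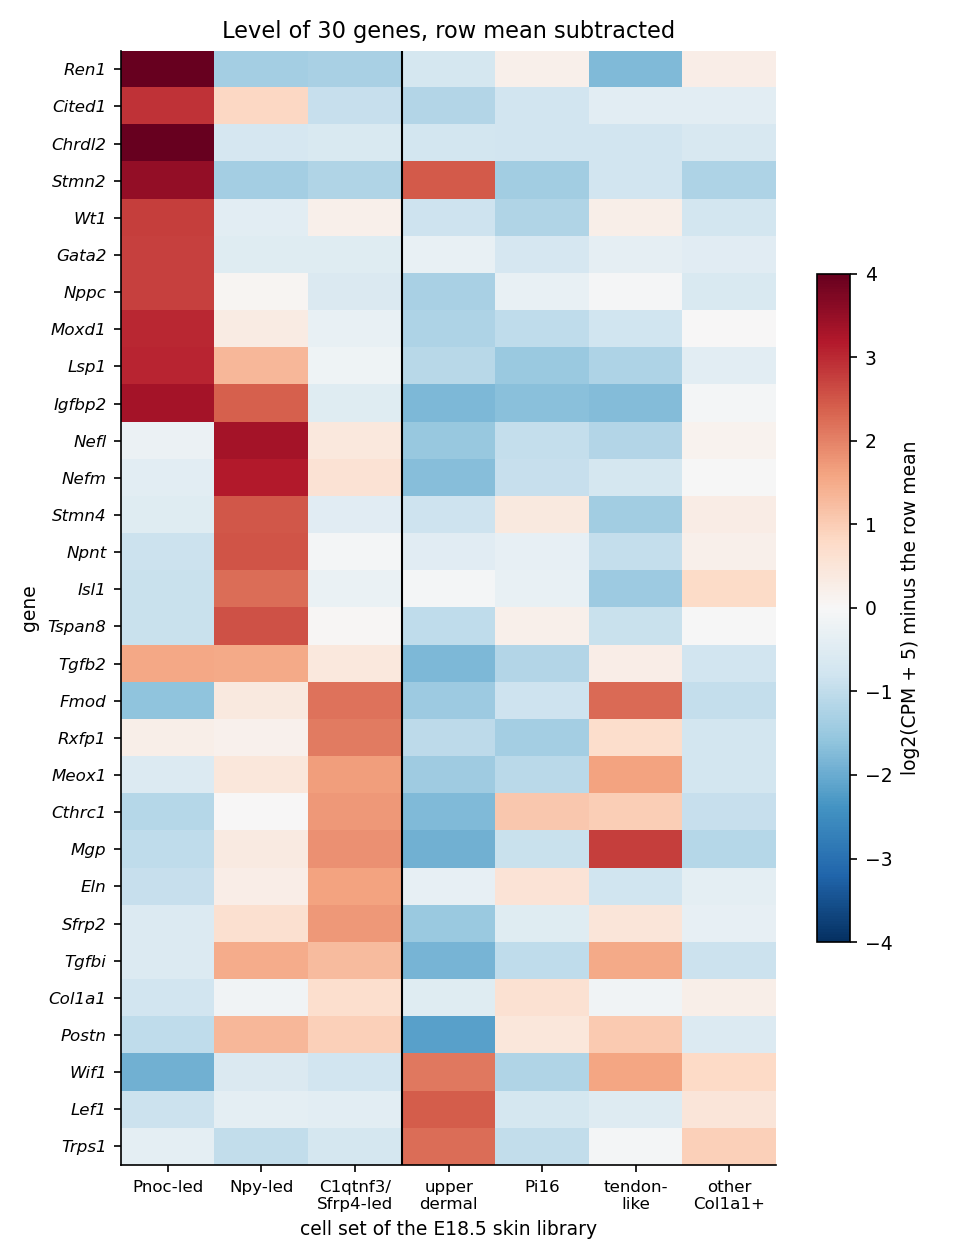
Level of 30 genes (rows) in the 3 kinds of member (left of the line) and 4 other sets of the library (right of it), as log2(CPM + 5) minus the mean of the row; red is above and blue below that mean. Ren1 to Moxd1 are red in the Pnoc-led column, Nefl to Tspan8 in the Npy-led column, and Fmod to Sfrp2 in the C1qtnf3/Sfrp4-led column, while Wif1, Lef1 and Trps1 are red in the upper dermal column (Lef1 70.6 CPM there against 5.30 CPM in members).

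Igfbp2, an insulin-like growth factor binding protein, had the greatest fold of any gene outside the rule when 5 CPM was added (5.77-fold, 635 against 106 CPM), and its level ran against that of C1qtnf3. With 1 CPM added, Rxfp1 (9.57-fold) and Chrdl2 (9.31-fold) were among the genes that passed its 5.95-fold. Igfbp2 stood at 2207 CPM in the Pnoc-led, 1140 CPM in the Npy-led and 152 CPM in the C1qtnf3/Sfrp4-led cells. Igfbp2 was found in 92.1% of members with 3 or more Pnoc UMIs and in 39.8% of those without Pnoc. Over the 855 members, which share a library and a rule, the correlation of log levels per cell was −0.60 between Igfbp2 and C1qtnf3, −0.47 between Pnoc and C1qtnf3, 0.56 between Pnoc and Chrdl2, 0.37 between Npy and Nefm, and 0.59 between Sfrp4 and Mgp. Pnoc and C1qtnf3 both count towards the sum of the rule, so the choice of cells itself lowers the correlation between them. Genes that go with either, such as Igfbp2, may share this effect, and these values are descriptions. Lsp1, an actin-binding protein best known from white blood cells, followed the order of Igfbp2 with 746, 221 and 74.8 CPM in the same kinds, against 42.4 CPM in the other Col1a1 cells.

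Set directly against the other Col1a1 cells, the kinds shared some of their higher genes and more of their lower ones. The Pnoc-led cells had 284 higher genes of 5922 compared (4.8%) and 230 lower (3.88%). The Npy-led cells had 171 of 5652 (3.03%) and 174 lower (3.08%), and the C1qtnf3/Sfrp4-led cells 115 of 5486 (2.1%) and 159 lower (2.9%). The Pnoc-led and C1qtnf3/Sfrp4-led cells had 21 higher genes in common, 7.39% of the former list and 18.3% of the latter. The Npy-led and C1qtnf3/Sfrp4-led cells had 56 in common (32.7% and 48.7%), and the Pnoc-led and Npy-led cells 50 (17.6% and 29.2%). Of the lower genes, 94 were common to the Pnoc-led and Npy-led cells (40.9% and 54.0%), 78 to the Pnoc-led and C1qtnf3/Sfrp4-led (33.9% and 49.1%) and 91 to the Npy-led and C1qtnf3/Sfrp4-led (52.3% and 57.2%). These lists share their comparison cells and the limits of the rule. Joining the Pnoc-led and Npy-led sides, the 307 members with more Pnoc and Npy than Sfrp4 and C1qtnf3 differed from the 538 with more of the latter by 149 higher (2.7% of 5515) and 77 lower genes (1.4%), with Ren1 and Chrdl2 among the highest, of whose UMIs in the members 91.5% and 92.0% came from the Pnoc-led cells.

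Summed over all members the upper dermal genes were low, as the rule in part required. Of 13 upper dermal genes compared, 9 were 2-fold lower and none higher, and 6 of the 9 had not been used by the rule (Lef1, Axin2, Dkk1, Trps1, Wif1 and Nkd2). These 6 are no separate support, since the rule kept upper dermal cells out of the members and left them among the comparison cells. Wif1, a secreted Wnt inhibitor, stood at 33.3 CPM (28.6 to 38.5) in members against 154 CPM in the other Col1a1 cells, and Trps1, a repressor needed for hair follicles, at 47.7 against 203 CPM. Of 8 Wnt target genes compared, none was higher and 5 were lower (Axin2, Lef1, Nkd1, Nkd2 and Tcf7), with a median log2 difference of −1.34. Over all genes 2.25% were lower. Axin2, Lef1 and Nkd2 were already counted as upper dermal genes, and the same limit of the comparison cells holds for this count. The 10 listed Wnt targets summed to 252 CPM in members, near the 274 CPM of the Pi16 set and the 234 CPM of the tendon-like set. In the upper dermal set they summed to 871 CPM. Lef1, the Wnt-responsive transcription factor of hair-forming dermis, stood at 5.30 CPM in members, 3.74 CPM in the Pi16 set and 70.6 CPM in the upper dermal set, so its low level was shared with the Pi16 set. The 11 listed upper dermal genes that the rule did not use summed to 148 CPM (121 to 179) in the Pnoc-led, 141 CPM (121 to 164) in the Npy-led and 149 CPM (136 to 162) in the C1qtnf3/Sfrp4-led cells. The Pi16 set held 143 CPM (136 to 150), the tendon-like set 358 CPM and the upper dermal set 1009 CPM. The kinds thus overlapped in this sum with each other and with the Pi16 set. Among the genes of the list 2-fold apart from the other members, Cpne5, Stmn2, Crabp1 (used by the rule) and Nkd2 were higher in the Pnoc-led cells, and Wif1 was lower (12.8 CPM, against 39.8 and 34.4 CPM in the other kinds). Runx3, a further transcription factor, stood at 2.38 against 24.1 CPM. Of 7 Wnt antagonists, 4 were higher (Sfrp1, Sfrp2, Dkk2 and, used by the rule, Sfrp4) and 3 lower (Wif1, Dkk1 and Sostdc1). Without Sfrp4, 3 of 6 were higher and 3 lower, with a median log2 difference of −0.13. The shares over all genes were 2.08% and 2.25%. Sfrp1 was 2-fold higher only in the C1qtnf3/Sfrp4-led cells and Dkk2 only in the Npy-led cells.

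Of 24 neuropeptide precursor genes 5 were compared, of which Tac1, Nppc and the rule's own Pnoc and Npy were higher, and 7 were at 0 in members (Pdyn, Vip, Sst, Nmu, Cartpt, Crh and Ucn). Tac1, the precursor of substance P, stood at 43.9 CPM in members against 13.7 CPM, and in the kinds at 54.6 CPM (C1qtnf3/Sfrp4-led), 30.7 CPM (Npy-led) and 14.2 CPM (Pnoc-led). The peptide processing genes were not higher as a group: 8 of 19 were compared, Pcsk5 was higher (66.0 against 27.9 CPM), the median log2 difference was 0.20, and Pcsk1, Chga and Vgf were at 0. Pcsk2, a convertase of neuropeptide precursors, was at 39.7 CPM in the Pnoc-led cells against 7.46 and 2.02 CPM in the Npy-led and C1qtnf3/Sfrp4-led cells. Of 15 receptors for neuropeptides only Ramp1 of 2 compared was higher, and the opioid receptor genes Oprm1 and Oprd1 were at 0.

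Over all genes compared between members and other Col1a1 cells, 2.08% were higher and 2.25% lower. Of 22 proteoglycan and matricellular genes 8 were higher (Bgn, Fmod, Ogn, Aspn, Thbs3, Postn, Tnc and Cthrc1) and 2 lower in the members (median 0.49). Of 16 elastic fibre genes 2 were higher (Eln and Mfap4, median 0.37), and of 24 collagens 2 were higher (Col8a2 and Col11a1) and 5 lower (median 0.05). Among the kinds, Bgn, Fmod, Aspn, Cthrc1, Eln, Mfap4 and Col11a1 were 2-fold higher in the C1qtnf3/Sfrp4-led cells only. In the Pnoc-led cells Fmod stood at 9.93 CPM, below the 31.3 CPM of the other Col1a1 cells. Of 18 fibroblast genes Postn was higher (2386 against 1034 CPM) and Twist2 and Thy1 lower. None of 13 imprinted growth genes was 2-fold apart, with a median of 0.70, and Dlk1 stood at 5328 against 3029 CPM, close to the 5518 CPM of the Pi16 set. Of 22 axon guidance and neurotrophin genes none was higher and 6 were lower (median −0.42). The myelin gene Mbp was lower in members, at 27.6 against 91.2 CPM, near the 26.7 CPM of the upper dermal and above the 13.5 CPM of the Pi16 set.

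Fewer members than other Col1a1 cells carried RNA of the G2 and M phases of the cell cycle. After thinning to 2000 UMIs, 232 of 843 members (27.5%, 24.5 to 30.7%) held 2 or more UMIs over 18 G2 and M phase genes, against 36.0% (34.9 to 37.2%) of the other Col1a1 cells, 41.0% of the upper dermal set, 29.3% of the Pi16 set and 33.8% of the tendon-like set. Without thinning the difference was not seen, with 64.2% of members and 63.4% of the other, shallower cells. By kind, the G2 and M phase share was 32.4% (23.9 to 42.0%) of the Pnoc-led, 27.6% of the Npy-led and 26.3% (22.6 to 30.2%) of the C1qtnf3/Sfrp4-led cells. With S phase genes added, 2 or more UMIs were held by 71.2% (61.8 to 79.4%) of the Pnoc-led and 57.4% (53.1 to 61.7%) of the C1qtnf3/Sfrp4-led cells, while the Npy-led stood at 58.4% (50.9 to 65.6%) and the other Col1a1 cells at 64.4% (63.3 to 65.5%). Of 16 G2 and M phase genes compared 3 were 2-fold lower (Cenpf, Nusap1 and Cdc20; median −0.77), and of 17 S phase genes none (median −0.30).

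The same rule found 10 cells in the other 17 libraries, all of mammary gland: 4 at postnatal day 5, 2 in the E18.5 mammary library, 2 in lactation D6, 1 in adult FVB/NJ P7 and 1 after involution, out of 2864 collagen cells. No other library reached 20 such cells, so folds were not set side by side. Pnoc had no UMI in those 2864 cells, a floor of 0.252 CPM over their 11927006 UMIs, against 70.6 CPM over all collagen cells of the skin library. The E18.5 mammary library, from the same embryos and processed together, held 403 collagen cells with no Pnoc UMI. Over all kept cells of the other libraries, with or without collagen, Pnoc had 17 UMIs. The E18.5 mammary library held 8 of them, at most 3 in a cell. Sfrp4 was not particular to skin: its level over collagen cells was 64.9 CPM in skin and 527 CPM in adult SWISS (383 collagen cells). It was 300.5 CPM in adult C57BL/6 (568 cells), 461 CPM after involution (109 cells) and 575 CPM in adult FVB/NJ P7 (41 cells). C1qtnf3 stood at 154 CPM in skin and at 70.8 CPM (59.3 to 83.8) in the 325 collagen cells of postnatal day 5. There 1 collagen cell held 124 UMIs of the 4 genes. The skin library shared between 0 and 148 cell barcodes with each other library, and between 0 and 15 of the members' barcodes, and no Pnoc UMI was found in those.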

How the data were processed

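Droplet single-cell RNA libraries (18 in all) were read from the deposited files, which hold raw UMI counts per gene and cell barcode. The authors made these counts with Cell Ranger (3.1.0 per the submitters' processing notes, 3.0.2 per the file header of the skin library) against mm10, and kept barcodes with 500 or more reads. No normalized value was taken from them. Coordinates are those of GRCm38.

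Members were the cells kept by the rule in the opening of the results, and both they and the gene lists were chosen with earlier results of these data known. Counts were summed per cell set and scaled to CPM, and a fold is (CPM + 5) over (CPM + 5) for genes at 20 CPM or more, and with a UMI in 5% or more of cells, in either set. A gene counted as apart at 2-fold. Genes named are the rule genes and markers, the 30 with the largest fold up and the 15 with the largest fold down, list members 2-fold or more apart, and the 5 largest folds in each direction between members led by peptides and by matrix genes. Genes named for the 3 kinds or for their presence in all 3 were chosen after their values were seen, as were the kinds themselves and Stmn2. Correlations are of log CPM per cell. Clusters came from 2000 variable genes, 20 principal components, 15 neighbours and Leiden resolution 0.5 (scanpy 1.11.5, igraph 0.11.9), with the genes of the rule left out. Doublets were marked with Scrublet as run in scanpy and kept, with an alternative without them. Cells were thinned with seed 1 to 2000 UMIs for shares. Exact intervals came from scipy 1.17.1. Alternatives covered the UMI, gene and collagen minimums, the study's cell limits, the CPM added, the low-value filter, per-cell means, edgeR 4.0.16 TMM scaling (scaling only), the comparison cells and the clustering settings. The fold script was tested on simulated data. Some genes are not reported here.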

Additional observations from a re-analysis of the deposited data

How the results depend on the processing

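The number of members moved with the minimum on the summed UMIs, to 988 cells at 2 or more and 691 at 5 or more, and stayed between 835 and 878 under the other alternatives that kept all 3 kinds. With 20 CPM added in place of 5, 60 genes were 2-fold higher and 38 lower, so that 61.2% of the genes apart were higher, against 48.1% in the reported comparison. Adding more CPM lowers every fold by construction. By kind, the Pnoc-led cells alone (114) gave 284 higher and 230 lower genes, while the counts for the Npy-led (188) and C1qtnf3/Sfrp4-led (538) cells alone stayed within 1.5 times of those reported for all members. The counts under the remaining alternatives, among them TMM scaling (124 higher and 112 lower) and a comparison without cells holding 3 or more Schwann cell gene UMIs (123 and 101), also stayed within 1.5 times. The kinds taken alone, the Schwann cell alternative and Stmn2 left out of the upper dermal sum (878 members) were chosen after seeing the data. The cell cycle difference, −8.52 percentage points after thinning, was 0.842 points (−2.65 to 4.24) without thinning, in the other direction, and −4.97 points with S phase genes added. With 10 principal components 80.7% of the Pnoc-led cells fell in their leading cluster. Of 735 values for 49 named genes under 15 alternatives, which leave out the kinds taken alone, none turned in direction, 138 moved beyond the counting interval, and 10 fell under 2-fold, all with 20 CPM added. In the Pnoc-led cells alone 8 of the 49 stood on the other side of the other Col1a1 cells, among them Fmod, Mgp, Npy and C1qtnf3, and 2 did so in each of the other kinds alone, among them Ren1. No paired analysis was possible because the skin was a single library. Depth limits genes near 1 UMI per cell set, and the 114 Pnoc-led cells have the widest intervals.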

Other observations

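Transcription factor families were read by kind after the values above had been seen, as levels with no test, counting a gene as apart at 2-fold against the other Col1a1 cells among genes at 20 CPM or more in the kind or in those cells. Of 39 Hox genes, which record position along the body axis, 10 reached that level for the Pnoc-led cells, of which 3 were higher and 3 lower. Hoxa11 and Hoxa5 reached it only in the Pnoc-led cells, where they were high. The 3 lower genes reached it only in the other Col1a1 cells. The filter thus in part set the direction of these calls. Over all genes under the same filter, 4.83% were higher and 3.91% lower in the Pnoc-led cells, and for the Npy-led cells 3.02% and 3.13%. For the Npy-led cells 8 Hox genes reached that level, of which none was higher and 3 were lower. Hoxa10 stood at 108 CPM (84.9 to 135) in the Pnoc-led, 54.7 CPM in the Npy-led and 32.6 CPM in the C1qtnf3/Sfrp4-led cells, against 30.3 CPM in the other Col1a1 cells. Hoxa11 stood at 31.2 CPM (19.6 to 47.2) in the Pnoc-led cells, against 4.15, 2.60 and 1.74 CPM, and Hoxa5 at 32.6 CPM (20.7 to 48.9), against 2.49, 8.09 and 6.00 CPM. Hoxb9 stood at 14.2 CPM in the Pnoc-led and 15.8 CPM in the Npy-led cells, against 36.1 CPM in the C1qtnf3/Sfrp4-led and 47.5 CPM in the other Col1a1 cells, and Hoxb2 and Hoxc8 were lower in the same 2 kinds. Within the other Col1a1 cells Hoxb9 ran from 23.1 CPM in the Pi16 set to 68.9 CPM in the upper dermal set. For the C1qtnf3/Sfrp4-led cells 8 Hox genes reached that level and none was 2-fold apart. Over all genes 2.1% were higher and 2.95% lower in this kind, so none of 8 lies near those shares.

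Of 13 T-box genes, 3 reached that level for the Pnoc-led cells, 1 higher and 2 lower. The higher gene, Tbx3, reached it only in the Pnoc-led cells, and the lower genes only in the other Col1a1 cells. Tbx3, known from limb and mammary development, stood at 62.4 CPM (45.3 to 83.8) in the Pnoc-led cells, against 14.1 CPM in the Npy-led, 13.9 CPM in the C1qtnf3/Sfrp4-led and 12.7 CPM in the other Col1a1 cells. Tbx18 stood at 9.93 CPM in the Pnoc-led and 8.95 CPM in the C1qtnf3/Sfrp4-led cells, against 36.7 CPM, and Tbx15 at 5.67 CPM in the Pnoc-led cells, against 25.2 CPM. The tendon-like set was lower still, with 6.90 CPM of Tbx18 and 3.62 CPM of Tbx15, so these low levels were not particular to the members. Gata6 showed another order, with 73.0 CPM (58.5 to 89.9) in the Npy-led, 56.3 CPM in the C1qtnf3/Sfrp4-led and 32.6 CPM in the Pnoc-led cells, against 22.6 CPM. The whole Hox set rests on 76 UMIs or fewer per gene in the 114 Pnoc-led cells.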
